A study of Mus musculus with 8 samples.

Results

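Glo1 and its neighbours Btbd9, Dnah8 and Glp1r lie side by side on chromosome 17 and were examined in naive corneas of the mouse strains BALB/cN and C57BL/6N. These 4 genes, of the 54532 listed, were picked by name and position, with their strain difference in these corneas already known, so that difference is given here as a description and nothing is supported with a test of it. The study compared these strains because they differ in the lymphatic vessels of the corneal rim. Total RNA of 4 corneas from male mice of each strain was sequenced in paired reads from libraries that keep the strand, with no treatment, transgene or deletion in either group. The labels give no age for these animals and do not say whether the corneas of a strain came from separate mice, so the spread between them may be partly technical. C57BL/6N is the reference throughout, so a positive difference is a higher value in BALB/cN.

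Glo1 encodes glyoxalase 1, which with glutathione turns methylglyoxal, a reactive by-product of glycolysis, into S-lactoylglutathione, the substrate of glyoxalase 2 (Hagh). Btbd9 encodes a BTB-domain protein that has been linked to cullin-3 ubiquitin ligases and to iron handling, and Dnah8 encodes a heavy chain of the axonemal dynein motor of motile cilia and sperm tails. Glp1r encodes the receptor of glucagon-like peptide 1, a class B receptor best known from pancreatic beta cells. Some inbred mouse strains carry a duplication of this stretch of chromosome 17. DNA copy number was not measured in these corneas.

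The deposited values are rlog values, a log2 scale on which values are pulled towards the mean of the gene, most in weakly read genes. Read counts were recovered from them by reversing the transformation, and normalized reads are these counts divided by the size factor of the cornea. Recovered totals ran from 36.7 to 41.2 M reads in BALB/cN and from 29.7 to 37.0 M in C57BL/6N. Markers of the corneal epithelium such as Krt12 were abundant in all 8 corneas, with 1888428 to 2264630 normalized reads summed over 7 markers. Keratocyte markers other than Ptgds, which mark the corneal stroma, were low in 3 corneas. Kera had 1558 normalized reads in BALB/cN replicate 2 and 248 and 585 in C57BL/6N replicates 3 and 4, against 26921 to 42645 in the other corneas. BALB/cN replicates 1 and 4 also held lens transcripts, with 4512 and 1729 normalized reads of Cryaa against 14.8 to 215 elsewhere. In bulk RNA, fewer cells of a type and less RNA per cell cannot be told apart.

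On GRCm38, Btbd9 (ENSMUSG00000062202) spans chr17:30215524-30576488 on the minus strand and Glo1 (ENSMUSG00000024026) chr17:30584936-30626871, also on the minus strand, 8.4 kb further on. Dnah8 (ENSMUSG00000033826) spans chr17:30624354-30877365 on the plus strand, and Glp1r (ENSMUSG00000024027) follows on the same strand at chr17:30901817-30940791, a gap of 24.5 kb. The annotated spans of Glo1 and Dnah8 overlap by 2.5 kb on opposite strands, but no exon of Glo1 overlapped an exon of Dnah8. The noncoding gene 1700097N02Rik shares 90 exonic bases with Glo1 and 207 with Dnah8, and it was listed at 0 in every cornea. The promoters of the members are shown because Glo1 and Dnah8 point away from each other, with RefSeq start sites at 30612659 and 30626936, and both were read more often in BALB/cN. Each line holds the 250 bases before the RefSeq start site (GRCm38.p6), 5′ to 3′ on the strand of the gene, and the windows are chr17:30612660-30612909 (minus strand) for Glo1, chr17:30626686-30626935 (plus strand) for Dnah8 and chr17:30901617-30901866 (plus strand) for Glp1r. Capitals mark matches, on either strand, to GGGCGG (the GC box), CCAAT (the CCAAT box), TGACNNNGC (the core of the antioxidant response element), TATAAA (the TATA box) and GTTGCC (the repeat unit of the X-box of ciliary genes). RefSeq promoters were matched for 3 of the 4 genes, and none was at hand for Btbd9.
Glo1 promoter: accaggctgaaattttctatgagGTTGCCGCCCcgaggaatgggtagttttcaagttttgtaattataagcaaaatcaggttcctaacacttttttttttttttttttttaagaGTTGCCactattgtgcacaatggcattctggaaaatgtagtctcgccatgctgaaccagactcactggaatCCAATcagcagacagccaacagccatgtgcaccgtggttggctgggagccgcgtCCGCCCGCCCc
Dnah8 promoter: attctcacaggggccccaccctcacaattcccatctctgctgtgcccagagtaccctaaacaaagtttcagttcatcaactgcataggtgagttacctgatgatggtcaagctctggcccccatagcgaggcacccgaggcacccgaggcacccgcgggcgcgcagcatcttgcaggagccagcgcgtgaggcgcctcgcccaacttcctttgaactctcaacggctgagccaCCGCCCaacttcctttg
Glp1r promoter: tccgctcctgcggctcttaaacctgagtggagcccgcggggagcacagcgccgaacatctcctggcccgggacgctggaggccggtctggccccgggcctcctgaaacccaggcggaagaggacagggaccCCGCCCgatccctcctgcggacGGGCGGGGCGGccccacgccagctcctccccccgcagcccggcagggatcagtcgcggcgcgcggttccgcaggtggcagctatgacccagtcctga

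The Glo1 window held 3 GC boxes, of which those at -11 and -7 overlap in the last capitals, a CCAAT box at -65 and 2 GTTGCC matches, at -227 and -136. The first GTTGCC overlaps the third GC box, at -223. Dnah8 held only a GC box at -17, and Glp1r held GC boxes at -119, -97 and -92. No window held TATAAA or TGACNNNGC. Among 32536 mouse promoters of the same length, 33.0% held GGGCGG, 33.8% CCAAT, 10.3% GTTGCC, 12.3% TATAAA and 10.2% TGACNNNGC. G and C made up 46.4% of the Glo1 window, 59.2% of the Dnah8 window and 73.2% of the Glp1r window, against a median of 52.4% over all promoters. Glp1r, the gene with hardly any reads, had the most GC-rich of the 3 windows. These matches describe the reference sequence, and neither binding nor strain variants were measured in these windows.

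Glo1 was read more often in BALB/cN. Its normalized reads in BALB/cN replicates 1 to 4 were 1898, 1955, 1506 and 1634, and in C57BL/6N replicates 1 to 4 they were 862, 845, 820 and 778. All BALB/cN corneas lay above all C57BL/6N corneas, and the lowest BALB/cN value was 1.75 times the highest C57BL/6N value. The means were 1748 ± 214 and 826 ± 36.5 normalized reads (SD, n = 4 each), a ratio of 2.12 that stayed between 2.03 and 2.21 when any cornea was left out. On the rlog scale the difference was 0.78 (SE 0.07). The C57BL/6N corneas were nearly alike, with a coefficient of variation of 4.42%, while the BALB/cN corneas spread over 12.2%.

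Btbd9 differed less. It had 1958, 2196, 1802 and 1793 normalized reads in BALB/cN replicates 1 to 4 and 1166, 1351, 1363 and 1366 in C57BL/6N replicates 1 to 4. The strains did not overlap here either, but they lay closer, with 1.31 between the lowest BALB/cN and the highest C57BL/6N cornea. The means of 1937 ± 188 and 1311 ± 97.5 (SD, n = 4 each) gave a ratio of 1.48, between 1.41 and 1.51 when any cornea was left out, and the rlog difference was 0.41 (SE 0.07).

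Dnah8 showed the widest gap. It had 501, 315, 444 and 484 normalized reads in BALB/cN replicates 1 to 4 and 78.5, 93.9, 13.9 and 14.8 in C57BL/6N replicates 1 to 4. The C57BL/6N corneas fell into a higher and a lower pair, and all 4 lay below the lowest BALB/cN cornea by 3.35 times or more. With means of 436 ± 84.5 and 50.3 ± 41.9 (SD, n = 4 each) the ratio was 8.68, between 6.99 and 12.2 when any cornea was left out. The rlog difference was 1.94 (SE 0.24), which is smaller than the log2 ratio of the normalized reads, 3.12. The lowest counts behind these values were 11 and 14 reads, in C57BL/6N replicates 3 and 4.

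Glp1r was barely read. BALB/cN replicates 1 and 4 had 2 and 3 reads and the other 6 corneas had 0 reads, a count that allows up to 3 reads per cornea. No cornea exceeded this limit, so no fold is given, and a strain difference was not detectable at this depth. BALB/cN replicates 1 and 4 are also the corneas with most lens and pigment transcripts, and their part in these reads was not tested. Glp1r was below the mean rlog of 0 needed to enter the comparison of strains.

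**Figure D1:**
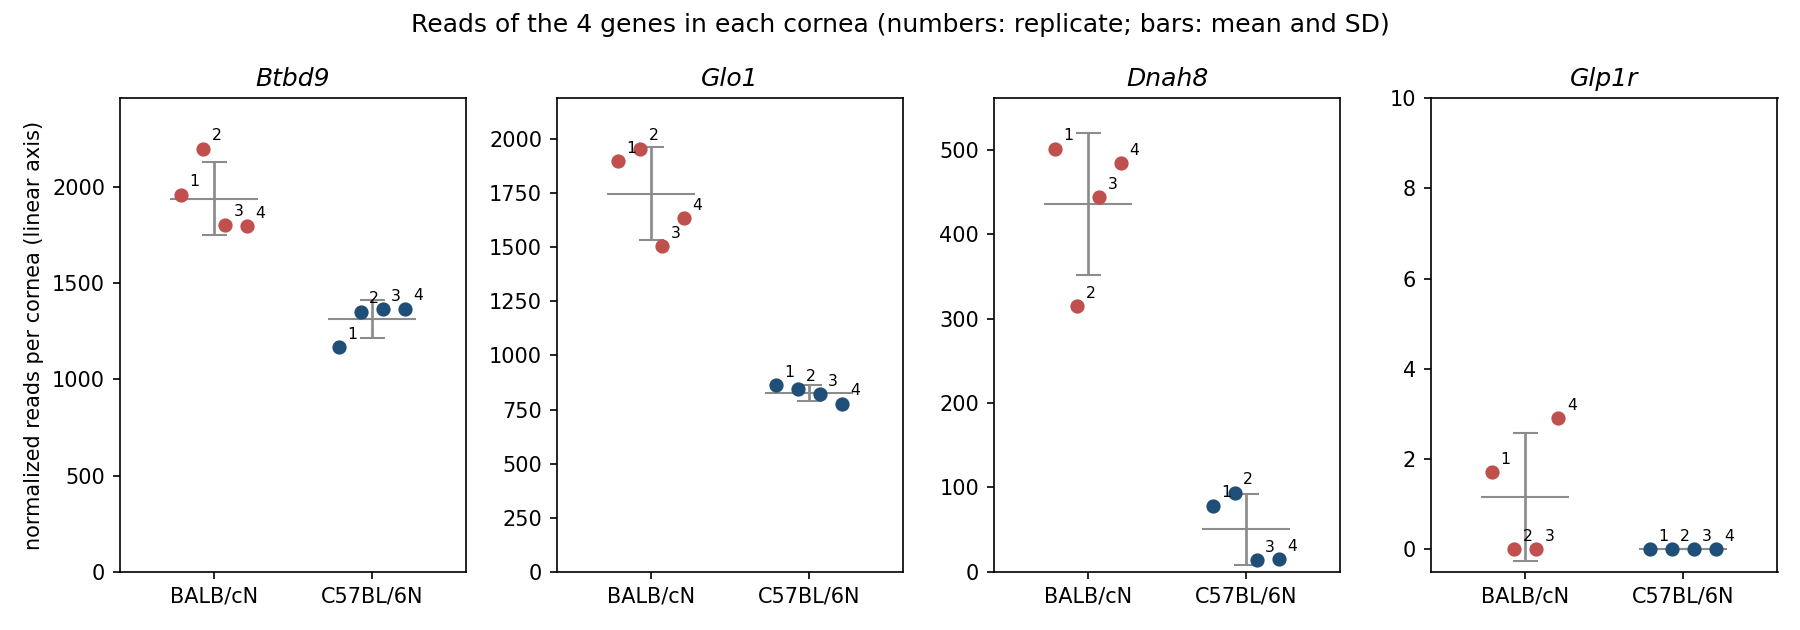
Normalized reads of Btbd9, Glo1, Dnah8 and Glp1r (vertical axes, linear, each panel with its own range) in each BALB/cN and C57BL/6N cornea, with grey bars for mean and SD (n = 4). The strains do not overlap for Btbd9, Glo1 and Dnah8, and Glp1r stays at 3 reads or fewer.

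Across the whole table, 1458 of 25402 genes tested with limma passed an adjusted p of 0.01 (5.74%), and all 3 members that could be tested were among them. Higher calls made up 2.83% of the genes and lower calls 2.91%. In 8.75% of genes every BALB/cN cornea lay above every C57BL/6N cornea, as it did in these 3 members. Over the main fit and its alternatives, 20 settings in all, Glo1 was called in 19, Dnah8 in 17 and Btbd9 in 11. The members were chosen with this contrast known, so nothing is read from these counts. The study's filtered DESeq2 list for its chromosome 17 locus, at the same threshold, holds Glo1 and Btbd9 but not Dnah8. That analysis recalibrated its p-values, and the reason for the difference in Dnah8 was not tested.

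The strain ratio differed from member to member. Within a cornea, Glo1 had 96.9, 89.0, 83.6 and 91.1 reads per 100 Btbd9 reads in BALB/cN replicates 1 to 4 and 74.0, 62.6, 60.2 and 56.9 in C57BL/6N replicates 1 to 4. These ratios need no library scaling, and they did not overlap between the strains (mean 90.1 ± 5.53 against 63.4 ± 7.39, SD, n = 4 each). Dnah8 had 14.3 to 27.0 reads per 100 Btbd9 reads in BALB/cN and 1.02 to 6.95 in C57BL/6N. Per kilobase of exon, Glo1 stood above Btbd9 in all BALB/cN corneas, with 124 to 162 against 98.5 to 121 normalized reads per kilobase. In C57BL/6N the ranges overlapped, at 64.3 to 71.2 for Glo1 and 64.0 to 75.1 for Btbd9, so their order there is not set beyond the spread. Dnah8 followed at 11.7 to 18.7 in BALB/cN and 0.518 to 3.50 in C57BL/6N, and Glp1r at 0.5 or less. Glo1 ranked at percentile 48.3 of the tested protein-coding genes by reads per kilobase, Btbd9 at percentile 44.6 and Dnah8 at percentile 19.6.

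**Figure D2:**
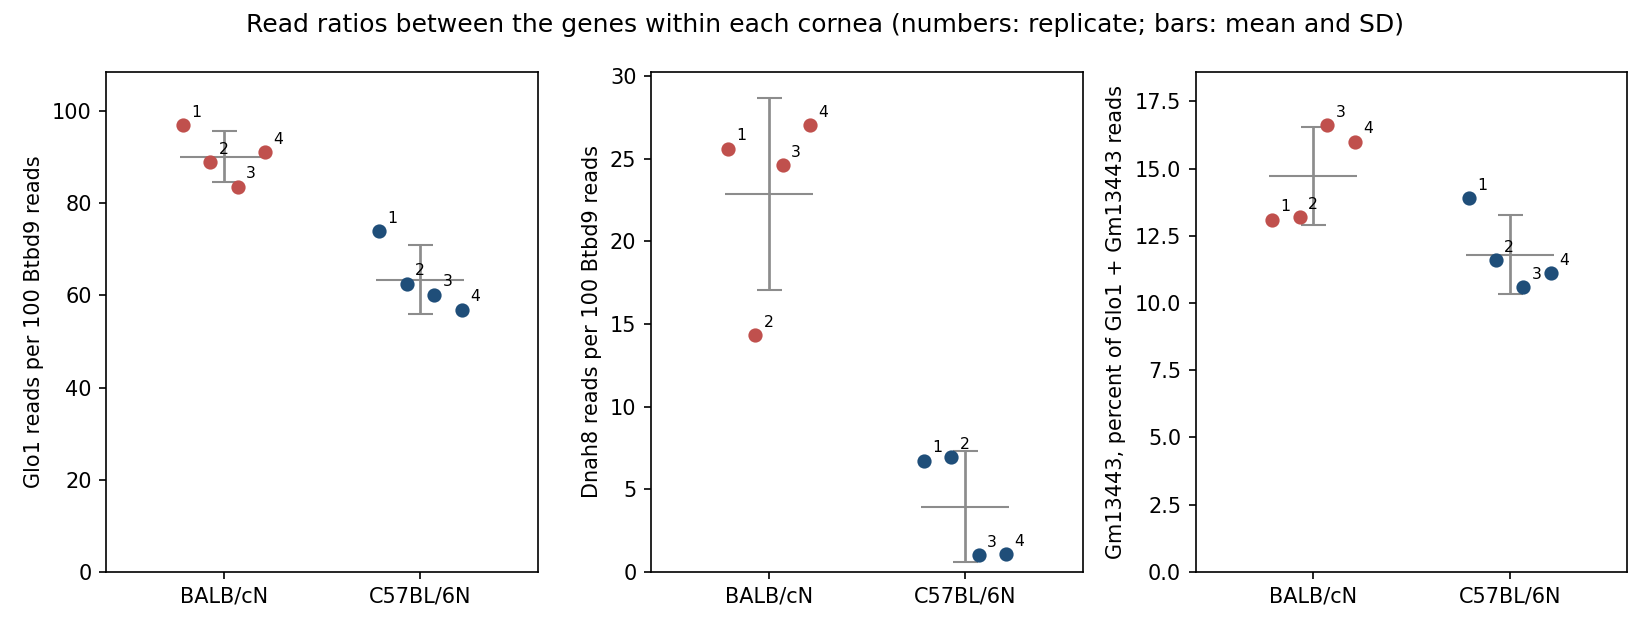
Reads of Glo1 and of Dnah8 per 100 Btbd9 reads, and the share of Gm13443 in the reads of Glo1 and Gm13443 together (percent), in each cornea, with grey bars for mean and SD (n = 4). The strains are apart for both Btbd9 ratios and overlap for the Gm13443 share.

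The coding sequence of Glo1 has a near-identical copy elsewhere, the processed pseudogene Gm13443 (ENSMUSG00000075391, chr2:35340409-35340963, plus strand), and reads can be shared between them. Over 555 bases, from the start to the stop codon of Glo1, the annotated transcripts differed at 3 positions, an identity of 99.46%. Of the 456 windows of 100 bases, the read length, 61.6% hold no difference on the reference, so single reads from them fit gene and copy alike. The reads were paired, and a pair can be placed if either read covers a difference. The share of pairs that fit both was not counted.

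Gm13443 was counted with 333, 341, 318 and 320 reads in BALB/cN replicates 1 to 4 and with 137, 111, 77 and 92 in C57BL/6N replicates 1 to 4. Its normalized reads averaged 298 ± 10.1 in BALB/cN and 111 ± 19.9 in C57BL/6N (SD, n = 4 each), a ratio of 2.68. Reads assigned to Gm13443 were more frequent in BALB/cN, as for Glo1 (rlog difference 0.85). They made up 13.1 to 16.6% of the reads of the pair in BALB/cN and 10.6 to 13.9% in C57BL/6N. Whether they came from the pseudogene or from Glo1 was not tested, so no p is given for them. Summing Glo1 and Gm13443 gave 2046 ± 208 and 938 ± 53.9 normalized reads, a ratio of 2.18 in place of 2.12. How the authors' counting treated reads that fit both places is not given in the sources used here. Among annotated reference transcripts, no copy outside the locus with at least 95% identity over 200 bases was found for Btbd9, Dnah8 or Glp1r. Unannotated copies and copies present only in BALB/cN were not searched.

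Dnah8 also varied with the stromal markers of the corneas. The keratocyte marker list (8 of 8 markers detected) summed to 96688 to 330121 normalized reads in BALB/cN and 48311 to 440624 in C57BL/6N, lowest in BALB/cN replicate 2 and C57BL/6N replicates 3 and 4. These are the corneas in which Dnah8 was lowest within each strain, with 315 against 444 to 501, and 13.9 and 14.8 against 78.5 and 93.9. Without these 3 corneas the Dnah8 ratio was 5.53, and among them it was 21.9. With the mean rlog of the markers as a covariate the rlog difference was 1.75 and its standard error fell to 0.09. Btbd9 went the other way and was highest within each strain in these corneas, with 2196 against 1793 to 1958 and, by a small margin, 1363 and 1366 against 1166 and 1351. Glo1 was highest in BALB/cN replicate 2, at 1955 against 1506 to 1898, but lowest in C57BL/6N replicates 3 and 4, at 820 and 778 against 845 and 862. The Glo1 and Btbd9 ratios were 1.97 and 1.47 without the 3 corneas and 2.45 and 1.61 among them. Which cells carried the Dnah8 reads was not tested.

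**Figure D3:**
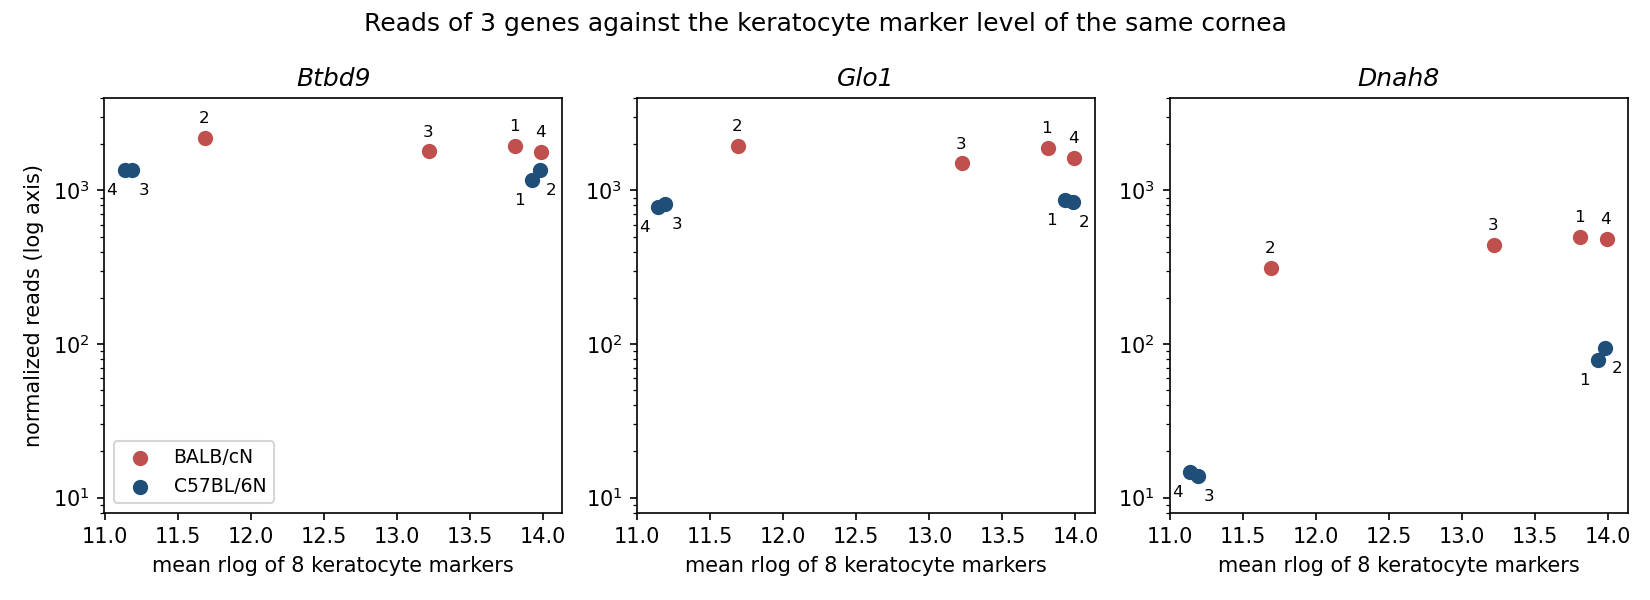
Normalized reads (log axis) of Btbd9, Glo1 and Dnah8 against the mean rlog of 8 keratocyte markers in the same cornea, with points coloured by strain and numbered by replicate. Dnah8 is lowest within each strain in the corneas with the lowest marker level, and the strains stay apart in every panel.

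Markers of the cell types in which Dnah8 is best known were read unevenly. Of 8 ciliated-cell and testis markers, Prm1, Prm2, Tnp1 and Acrv1 were listed at 0 in all corneas, and Foxj1, the master regulator of motile cilia, had at most 9.99 normalized reads. The list summed to 303 to 425 normalized reads in BALB/cN and 204 to 389 in C57BL/6N, nearly all of it Ccdc39 and Rsph1. Rsph1, a radial spoke protein whose gene is among the neighbours within 1 Mb, lay on the same side as Dnah8. It had 126 to 195 normalized reads in BALB/cN and 83.5 to 97.4 in C57BL/6N, with no overlap (rlog difference 0.43, limma adjusted p = 0.0198). Ccdc39 overlapped, with 156 to 283 and 110 to 286 (rlog difference 0.07, limma adjusted p = 0.867), as did Foxj1 (0.02, limma adjusted p = 0.785). The part of Rsph1 in the Dnah8 difference was not tested. Conjunctival keratins and mucins also differed between the strains: 4 of 5 markers, Krt13, Krt4, Krt19 and Muc4, were lower in BALB/cN, while Muc5ac was not called, with 29.1 to 522 normalized reads in BALB/cN and 0 to 4.08 in C57BL/6N. The list summed to 523782 to 773050 in BALB/cN and 886601 to 1119169 in C57BL/6N. Nearly all of this was Muc4 (521823 to 771012 and 868591 to 1099370), so the sum mainly follows that gene. The part of these markers in the differences of Glo1, Btbd9 and Dnah8 was not tested. Without the 2 corneas with most lens reads (9 of 9 markers detected, summed 487 to 9337 in BALB/cN and 246 to 656 in C57BL/6N), the ratios of Glo1, Btbd9 and Dnah8 were 2.09, 1.52 and 7.55.

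The stretch around the members was not uniform. Within 1 Mb outside Btbd9 and Glp1r, 31 other genes were tested and 6 were called by limma (19.4%, against 5.74% of all genes), 5 higher and 1 lower in BALB/cN. Their median difference was 0.03, against 0.01 over all genes. No other gene between the members had enough reads for a test. Zfand3, a zinc finger gene that ends 4.7 kb before Btbd9, averaged 4322 normalized reads in BALB/cN and 4200 in C57BL/6N, and its rlog difference of 0.03 did not pass (adjusted p = 0.795) and turned to -0.04 with median centring. On the other side, Umodl1 was listed at 0, and the nearest tested protein-coding gene, the cholesterol transporter Abcg1 at 116.9 kb from Glp1r, was at 3103 against 4871 normalized reads (rlog difference -0.48, limma adjusted p = 0.0256). Its adjusted p ran from 0.000152 to 0.789 over the alternatives, and Abcg1 passed in 1 of them, with the keratocyte covariate (rlog difference -0.39).

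The 6 called neighbours lay further out, from 238.5 kb after Glp1r and from 509.5 kb before Btbd9. Pde9a, a cGMP-specific phosphodiesterase, rose most, with 1390 to 1896 normalized reads in BALB/cN against 359 to 499 in C57BL/6N (rlog difference 1.44, adjusted p = 1.58e-05). Tmprss3, a membrane serine protease, was higher by 0.76 (adjusted p = 0.00148), and Fgd2, an exchange factor for Cdc42, by 0.63 (adjusted p = 0.00212). Cmtr1, an mRNA cap methyltransferase, and the pseudogene Gm10045 were each higher by 0.40 (adjusted p = 0.00523 and 0.00446). Cbs, cystathionine beta-synthase of the transsulfuration pathway that feeds glutathione synthesis, fell by 2.24 on the rlog scale (3.43 to 12.2 against 248 to 325 normalized reads, adjusted p = 1.28e-06). With the keratocyte covariate Abcg1 and Pim1, a serine/threonine kinase, joined them, to make 8. Only Cbs and Pde9a kept their calls with median centring, with the replicate block and without the 3 keratocyte-poor corneas. Gm10045 lost its call whichever cornea was left out, and Cmtr1 did unless it was C57BL/6N replicate 3.

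**Figure D4:**
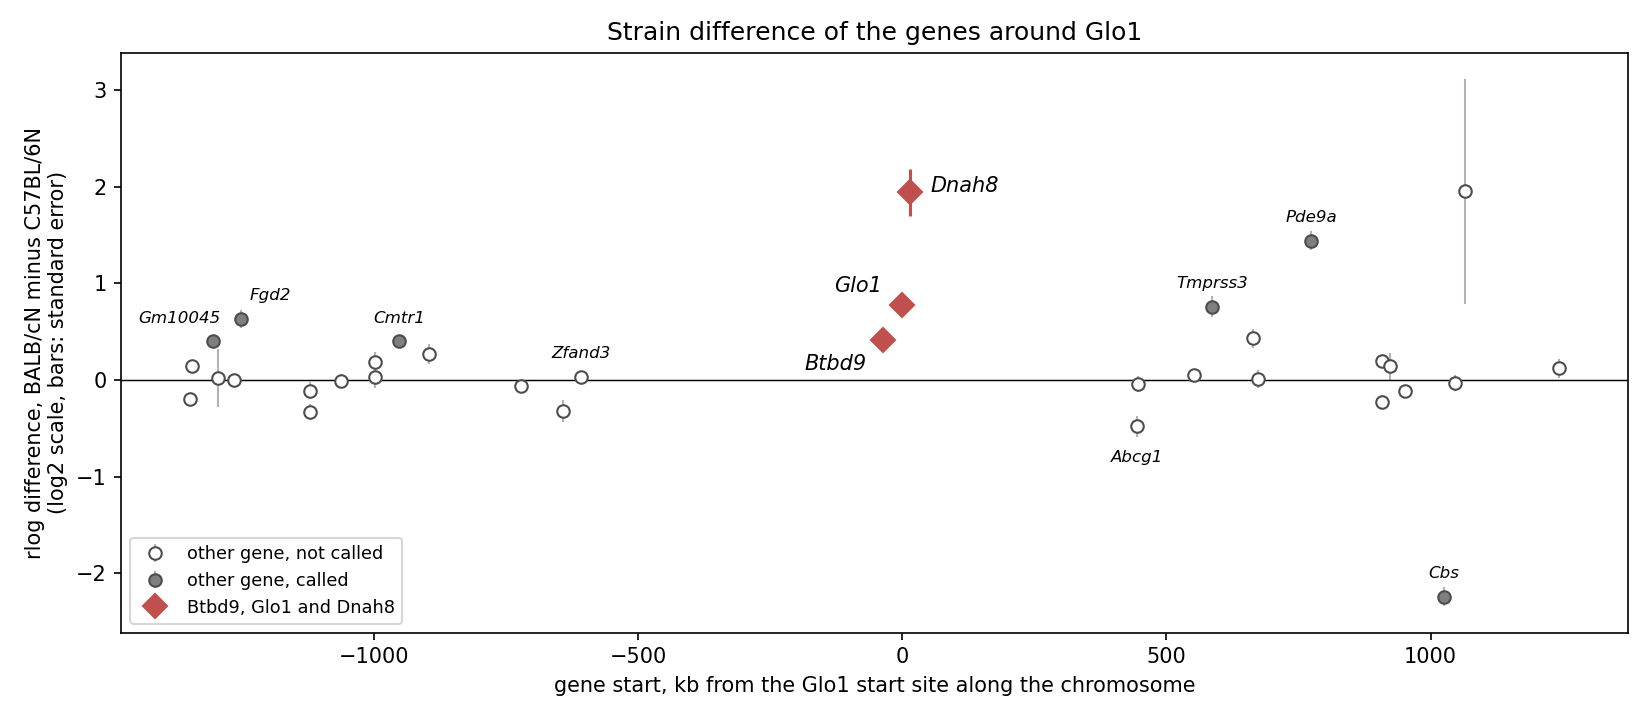
Difference in rlog value between BALB/cN and C57BL/6N (vertical axis, log2 scale, bars are standard errors from limma) of Btbd9, Glo1, Dnah8 and the 31 other tested genes within 1 Mb, against the distance of the gene start from the Glo1 start site in kb. Filled grey points are called at an adjusted p of 0.01, and Zfand3 and Abcg1, the tested protein-coding genes nearest to the members, are not.

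Genes of the methylglyoxal and glutathione pathway were called in both directions. Of 24 tested genes, 1 was called higher and 3 lower in BALB/cN (16.7%, against 5.74% of all genes), and the median difference was 0.06. Hagh, the next enzyme after glyoxalase 1, had 611 to 695 normalized reads in BALB/cN and 459 to 672 in C57BL/6N (rlog difference 0.10, adjusted p = 0.547), and the ranges overlapped. Akr1b7, an aldo-keto reductase, fell by 1.25 on the rlog scale (758 to 937 against 2552 to 2956, adjusted p = 2.72e-06). Lgals3, galectin 3, which binds glycated proteins and had the highest level of the list per kilobase, fell by 0.44 (adjusted p = 0.00172), and Gss, glutathione synthetase, fell by 0.39 (adjusted p = 0.00821). Aldh2, the mitochondrial aldehyde dehydrogenase, rose by 0.63 (7250 to 8362 against 3461 to 5335, adjusted p = 0.00301). Of these, Akr1b7 was the gene that kept its call in every alternative except the recalibrated p-values. Gss lost its call whichever cornea was left out, and Aldh2 without BALB/cN replicate 1, 3 or 4 or C57BL/6N replicate 4.

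Around Btbd9, 1 of 21 tested genes of cullin-3 ligases and iron handling was called (4.76%, against 5.74% of all genes), with a median difference of 0.02. Slc11a2, the iron importer DMT1, fell by 0.58 on the rlog scale (1257 to 1454 against 2224 to 2513 normalized reads, adjusted p = 0.000212). Cul3 itself was at 2234 to 2776 and 2702 to 2950 normalized reads and did not pass (adjusted p = 0.162). The ferritin heavy chain Fth1 had the highest level of the list, and its difference of -0.07 did not pass (adjusted p = 0.431).

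No other axonemal dynein gene was called with Dnah8. Of 22 tested dyneins and assembly factors, 0 passed an adjusted p of 0.01 in limma (which called 5.74% of all genes). In limma voom on recovered reads, which called 5.61% of all genes, 0 passed as well. In each fit 4 had an unadjusted p under 0.05. Over all 25402 genes 6009 did so in limma and 6042 in limma voom, so nothing is read from the 4. The median difference was 0.03. Many of these genes were weakly read, where rlog shrinks differences most and a strain difference is hard to detect. With a mean rlog of at least log2 of 10, only 9 stayed in the test, and 0 of them were called. Dnah7b, another heavy chain, had the largest difference, with 163 to 326 normalized reads in BALB/cN and 76.2 to 188 in C57BL/6N (rlog difference 0.59, adjusted p = 0.0528), and the keratocyte covariate brought it past the threshold. Dnah10, also a heavy chain, lay the other way, with 16.3 to 51.3 normalized reads in BALB/cN and 53 to 72.1 in C57BL/6N (rlog difference -0.40, adjusted p = 0.049), and its strains did not overlap. Dnal1, a dynein light chain, had the highest level per kilobase (416 to 470 against 286 to 427 normalized reads, adjusted p = 0.179).

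The genes of the ligands were not read either. Gcg, the precursor of glucagon-like peptide 1, and Gip were listed at 0 in all corneas, as was the related receptor Glp2r. Of 20 genes of incretin signalling and class B receptors, 11 had enough reads for the test, and 1 was called higher and 1 lower (18.2%, against 5.74% of all genes). Vipr2, a receptor of vasoactive intestinal peptide, had 570, 144, 488 and 543 normalized reads in BALB/cN replicates 1 to 4 and 42.8, 33.0, 1.26 and 0 in C57BL/6N replicates 1 to 4 (rlog difference 2.43, adjusted p = 0.00129). Its lowest corneas in each strain were the keratocyte-poor ones, as for Dnah8, and it was not called by limma voom on recovered reads. Arrb1, beta-arrestin 1, fell by 0.55 (736 to 825 against 1165 to 1527, adjusted p = 0.00109). Dpp4, the peptidase that inactivates incretins, had 198 to 446 and 273 to 776 normalized reads and did not pass (adjusted p = 0.511). Gnas, the stimulatory G protein through which Glp1r signals, had the highest level per kilobase of the list (rlog difference 0.26, adjusted p = 0.206).

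**Figure D5:**
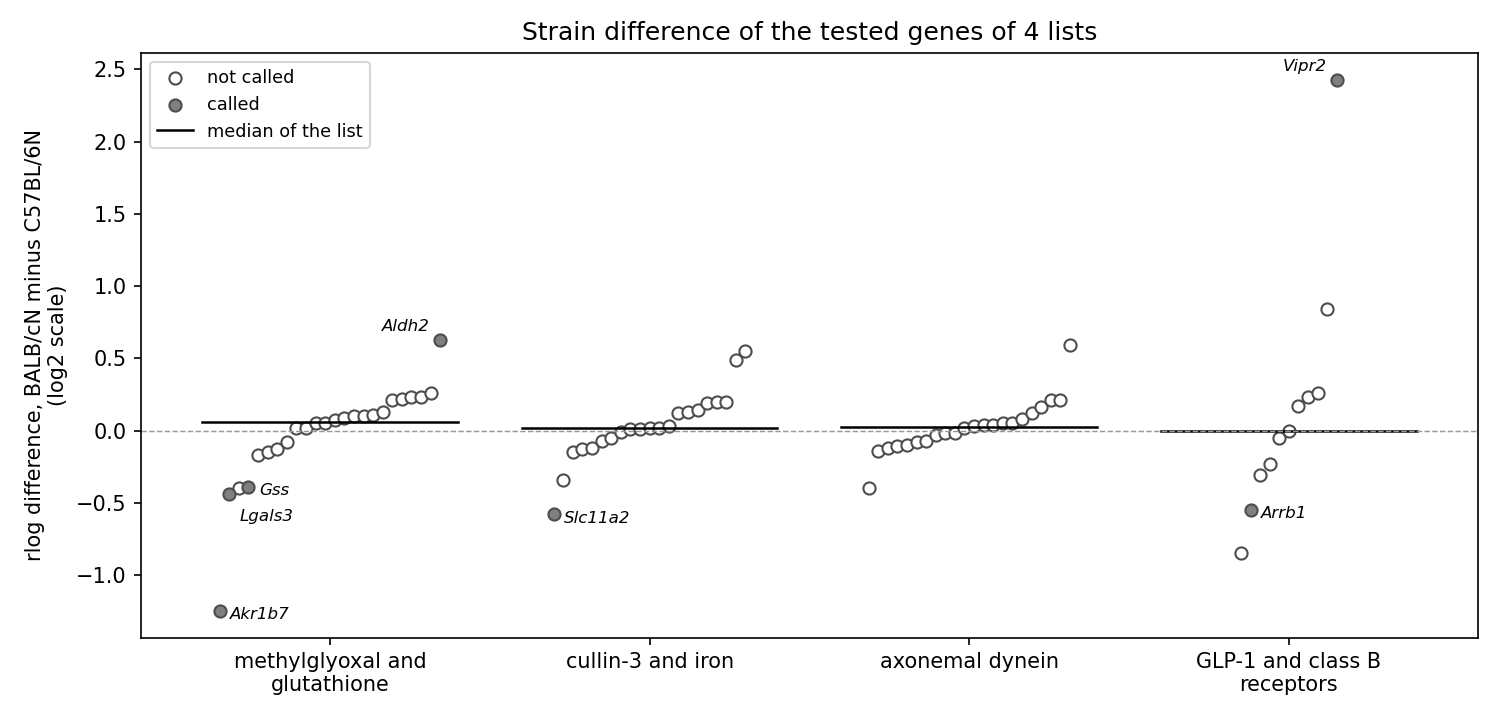
Difference in rlog value between BALB/cN and C57BL/6N (vertical axis, log2 scale) of every tested gene of 4 lists, ordered by size within each list, with lines at the list medians. Filled points passed an adjusted p of 0.01 and are named, and no axonemal dynein is among them.

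By root mean square difference of rlog values centred on the mean of the gene over the 8 corneas, the genes nearest to Glo1 were Hsh2d (0.069), Gm42743 (0.0751), Agmo (0.0761), Gm7160 (0.0813) and Ak7 (0.0916). None of them lies on chromosome 17. All were read more often in BALB/cN, which follows from choosing them by nearness to Glo1. Hsh2d, an adaptor of lymphocyte signalling, had 41.4 to 76.0 normalized reads in BALB/cN and 0 to 5.06 in C57BL/6N, with an rlog difference of 0.88 against 0.78 for Glo1. The likeness holds on the rlog scale, on which weakly read genes are shrunk most. The mean of Hsh2d was 61.4 against 2.53 normalized reads, and limma voom on recovered reads put the log2 differences of these 5 genes at 4.76, 5.68, 2.83, 1.71 and 1.86 in the order above, against a log2 ratio of 1.08 for Glo1. Agmo, alkylglycerol monooxygenase, had 64.9 to 104 against 5.29 to 16.0 normalized reads, and Ak7, an adenylate kinase, 76.2 to 123 against 20.4 to 36.0. Btbd9 stood at 0.202, rank 352, and Dnah8 at 0.683, rank 24352 by this measure. The measure also counts the size of a difference. Dnah8, with an rlog difference of 1.94, thus ranks far from Glo1 although both were higher in BALB/cN.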

How the data were processed

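RNA from the 8 corneas, 4 of each strain, was sequenced in strand-specific libraries of 100-base paired reads. The authors trimmed and filtered the reads, aligned them to strain pseudo-genomes of GRCm38 with TopHat2 (2.1.1), converted the alignments to reference coordinates and assigned reads to the exons of Ensembl genes with HTSeq (0.7.1). The values that the authors deposited are rlog values from DESeq2 (1.30) on a log2 scale, normalized for library size. No counts were used directly: reads were recovered by inverting the transformation, with its constants fitted so that counts came out whole. In genes left out of that fit, 88.0% of values lay within 0.1 of a whole number at 10 to 5000 mean reads, against 20.4% after adding a random fraction. Above 5000 reads 25.0% did, so those counts are less exact. PCR copies of a molecule are not independent, so the counts can vary by more than counting error. Columns were mapped by their labels, and 0 were left unused.

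The strain comparison used limma 3.58.1 (R 4.3.3; eBayes with a variance trend) over 25402 genes with a mean rlog of at least 0, two-sided, with Benjamini-Hochberg adjustment over all of them, and genes with an adjusted p of 0.01 or less were called. The procedure was tested on simulated data. Positions came from GENCODE M21 (GRCm38), which holds 31278 of the 31314 genes with reads. Copies were sought among the GENCODE M21 transcripts with BLAST 2.17.0. Python 3.11.15, numpy 2.4.6 and pandas 2.3.3 did the rest. The members and the gene lists were chosen with earlier results of these data known. Named genes are the members, called neighbours and the nearest tested protein-coding genes, up to 8 called genes of each list and its highest by reads per kilobase, copies with reads, and the 5 genes nearest to Glo1; Hagh, Cul3, Dnah7b, Dnah10, Pim1, Dpp4, Umodl1, 1700097N02Rik, the ligand genes and the cell type markers were named in addition, after their values were seen. No cornea repeated another of its strain: chi-square per degree of freedom was 6.11 to 29.4 over pairs. Alternatives were no variance trend, other filters on the mean (none, or at least log2 of 10), median centring, quantile normalization, a keratocyte covariate, the replicate block, recalibrated p-values and leaving out each cornea. Added after the data were seen were a limma voom fit to the recovered reads and leaving out the 3 keratocyte-poor or the 2 lens-rich corneas. The sequences around the differences between Glo1 and its copy are not reported here.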

Additional observations from a re-analysis of the deposited data

Results flagged for a closer look

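Among 54 sets of 4 corneas (each named gene in each strain), 4 held a cornea far from the other 3 by Dixon's test, and chance flags about 1 in 20 such sets. Btbd9 was lowest in C57BL/6N replicate 1, with an rlog value of 10.31 and 1166 normalized reads against 1351 to 1366 in the others. Cbs was highest in the same cornea, with an rlog value of 7.52 and 325 normalized reads against 248 to 249. Gm42743 was also highest there, at an rlog value of 4.17 and 6.11 normalized reads, with 0 in the others. Vipr2 was lowest in BALB/cN replicate 2, a keratocyte-poor cornea, at an rlog value of 7.02 and 144 normalized reads against 488 to 570.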

How the results depend on the processing

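The differences of Glo1, Btbd9 and Dnah8 kept their direction in every alternative fit to the rlog values, from 0.71 to 0.83 for Glo1, 0.34 to 0.45 for Btbd9 and 1.57 to 2.12 for Dnah8 on the rlog scale. As log2 ratios of mean normalized reads they were larger by construction, at 1.08, 0.56 and 3.12, and 1.13 for Glo1 with Gm13443. The recalibration changes p-values and not these differences, and no voom difference is given for the members. The 1458 calls over all genes became 958 with median centring, 2410 with the keratocyte covariate, 554 with the replicate block, 852 without the 3 keratocyte-poor corneas, 447 without the 2 lens-rich corneas, and 953 to 1163 without any single cornea (953 without C57BL/6N replicate 4). With p-values recalibrated to an empirical null (SD 1.67) 0 genes passed limma's adjusted p, with 1730 at an unadjusted p under 0.05, while limma voom called 1424, and every neighbour and list count was then 0. The 6 called neighbours became 8 with the keratocyte covariate, 2 with median centring, with the replicate block and without the 3 keratocyte-poor corneas, 3 with quantile normalization and without the 2 lens-rich corneas, and 4 to 5 without any single cornea. The 4 methylglyoxal and glutathione genes became 2 with median centring and without the 3 keratocyte-poor corneas, 1 with the replicate block and without the lens-rich corneas, and 2 to 4 without any single cornea. It was 2 without BALB/cN replicate 1, 3 or 4 or C57BL/6N replicate 4. The 1 cullin-3 and iron gene became 2 with quantile normalization and 4 with the covariate. The 0 axonemal dyneins became 1 with the covariate. The 2 class B genes became 4 with the covariate, 0 with the replicate block and without the lens-rich corneas, and 1 with limma voom. Zfand3 turned to -0.04 with median centring, ranged from -0.01 to 0.06 without any single cornea (-0.01 without C57BL/6N replicate 3), and was -0.03 without the keratocyte-poor corneas. The cause of these changes was not tested. In fits that leave corneas out, their smaller number cannot be told apart from which corneas were removed. Deviations of same-numbered corneas of the strains correlated at 0.31, -0.53, -0.20 and -0.45 for replicates 1, 2, 3 and 4. Replicates 2, 3 and 4 each set a keratocyte-poor cornea against one that was not. These correlations therefore cannot decide whether the numbers pair the corneas. The replicate block also takes up degrees of freedom. Depth limits Glp1r, Dnah8 in 2 C57BL/6N corneas, and the weakly read axonemal dyneins.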
